A study of Mus musculus with 6 samples.

Results

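Transcripts of 10 basement membrane genes were measured in the P9 mouse cochlea: the 6 chains of type IV collagen (*Col4a1* to *Col4a6*), the nidogens *Nid1* and *Nid2*, and the heparan sulfate proteoglycans perlecan (*Hspg2*) and agrin (*Agrn*). They were chosen by gene symbol, as 10 of the 24411 genes quantified, and all 10 passed the filter on low counts. The study asked which transcripts change when the spontaneous action potentials of inner hair cells (IHCs) are silenced by the inward rectifier K+ channel Kir2.1, the product of *Kcnj2*. *Kir2.1*-OE mice carried *Otof* rtTA+/- and *Kir2.1*+/-, so that doxycycline (DOX) switched on a *Kir2.1* transgene. Controls were littermates with *Otof* rtTA+/- and *Kir2.1*+/+ that also received DOX at 0.5 mg/ml, so both groups shared the rtTA allele, the drug and the C57BL/6N background. The *Otof* promoter drives rtTA mainly in IHCs, whereas RNA came from dissected sensory epithelium pooled from 8 cochleae of 4 mice per library, with 3 libraries per group.

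Basement membranes are thin sheets of matrix under epithelia and around vessels, Schwann cells and muscle fibres. They are built from a laminin network and a type IV collagen network, which nidogens, perlecan and agrin help to join. Type IV collagen chains assemble as trimers. The *Col4a1* and *Col4a2* chains form the ubiquitous trimer, the *Col4a3*, *Col4a4* and *Col4a5* chains form a trimer found in the cochlea and the kidney glomerulus, and *Col4a5* also pairs with *Col4a6*. Human mutations in *COL4A3*, *COL4A4* or *COL4A5* cause Alport syndrome, in which kidney disease is joined by hearing loss.

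The 6 collagen genes lie as head-to-head pairs on opposite strands. In the mm10 annotation the first exons of *Col4a1* and *Col4a2* (chromosome 8) overlap at their ends, the annotated starts of *Col4a3* and *Col4a4* (chromosome 1) lie 72 bases apart, and those of *Col4a5* and *Col4a6* (chromosome X) lie 1309 bases apart. *Col4a1* spans chr8:11198423-11312826 and *Col4a2* chr8:11312805-11449287, *Col4a3* chr1:82586921-82722059 and *Col4a4* chr1:82448423-82586849, and *Col4a5* chrX:141475385-141689234 and *Col4a6* chrX:141165403-141474076. *Nid1* lies at chr13:13437551-13512269, *Nid2* at chr14:19751265-19811787, *Hspg2* at chr4:137468769-137570630 and *Agrn* at chr4:156165290-156197488. Sequence upstream of the annotated starts is shown for the 2 separated pairs and for *Hspg2*, the member with the largest log2 fold change. Of these pairs, *Col4a4* and *Col4a3* are compared with each other below. The sequences are described next. These stretches are RefSeq promoter windows on GRCm38.p6 cut at the annotated start, and a window was matched for 8 of the 10 members, *Col4a3* and *Nid2* being the others. Each is written 5′ to 3′ on the strand of the gene named first, and capitals mark matches on either strand to 3 short promoter motifs. These were the GC box, spelled GGGCGG, the box named after its letters CCAAT, and the TATA box, which was searched as TATAAA. The stretch between *Col4a4* and *Col4a3* is chr1:82586850-82586920 on the minus strand, that of *Col4a5* is chrX:141475169-141475384 on the plus strand, that of *Col4a6* is chrX:141474077-141474326 on the minus strand and that of *Hspg2* is chr4:137468553-137468768 on the plus strand.
Col4a4 and Col4a3: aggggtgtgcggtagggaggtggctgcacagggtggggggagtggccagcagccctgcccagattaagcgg
Col4a5: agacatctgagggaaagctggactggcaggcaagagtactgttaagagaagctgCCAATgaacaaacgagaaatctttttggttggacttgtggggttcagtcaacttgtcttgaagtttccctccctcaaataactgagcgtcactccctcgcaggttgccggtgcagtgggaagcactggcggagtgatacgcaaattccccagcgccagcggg
Col4a6: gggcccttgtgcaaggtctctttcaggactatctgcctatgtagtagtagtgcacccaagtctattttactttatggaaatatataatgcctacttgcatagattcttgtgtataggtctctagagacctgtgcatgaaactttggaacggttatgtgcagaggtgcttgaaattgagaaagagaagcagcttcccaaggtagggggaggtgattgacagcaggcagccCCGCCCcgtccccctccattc
Hspg2: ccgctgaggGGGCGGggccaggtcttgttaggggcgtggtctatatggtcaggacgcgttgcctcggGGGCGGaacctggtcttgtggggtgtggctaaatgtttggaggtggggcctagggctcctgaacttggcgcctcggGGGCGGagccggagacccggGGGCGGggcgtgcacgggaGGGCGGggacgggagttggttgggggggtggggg

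The *Hspg2* stretch held 5 GC boxes in 216 bases at 70.8% GC. A GC box was present in 31.6% of 32851 promoter windows of that length. The *Col4a5* stretch held 1 CCAAT box, a motif present in 30.8% of windows of its length, and the *Col4a6* stretch held 1 GC box, present in 32.7%. The 71 bases shared by *Col4a4* and *Col4a3* held none of the 3 motifs at 69.0% GC, where windows of 71 bases held a GC box in 20.7%, a CCAAT box in 13.3% and a TATA box in 4.4%. These matches describe the letters only.

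The libraries held 35430940 to 41205047 assigned read pairs. *Kcnj2*, the overexpressed gene, was at 3611.9, 3813.3 and 2213.1 normalized counts in the *Kir2.1*-OE libraries and at 235.77, 228.07 and 225.97 in controls (log2 fold change 3.80, adjusted p = 7.04e-05, edgeR quasi-likelihood test). Normalized counts are estimated counts scaled to one common library size. The 10 members together took 0.255%, 0.255% and 0.26% of assigned counts in *Kir2.1*-OE and 0.12%, 0.138% and 0.115% in controls. In such bulk samples, more cells of a type and more RNA per cell cannot be told apart.

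Transcripts of all 10 basement membrane genes were more abundant in every *Kir2.1*-OE library than in any control library, a separation found in this direction for 31.7% of all 15303 genes tested. A gene was called when its adjusted p was under 0.05 and its fold change above 1.5. By this rule 8 of 10 members were called higher, where 15.5% of all genes tested were, and the exceptions were *Col4a5* and *Nid2*. None was called lower, against 5.08% of all genes, and 0 members had a negative change at an unadjusted p under 0.05 in edgeR (0 were called lower by DESeq2 or limma-voom). Without the fold threshold all 10 passed, where 27.3% of all genes were higher. The median log2 fold change was 1.04 for the members and 0.01 for all genes tested.

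**Figure D1:**
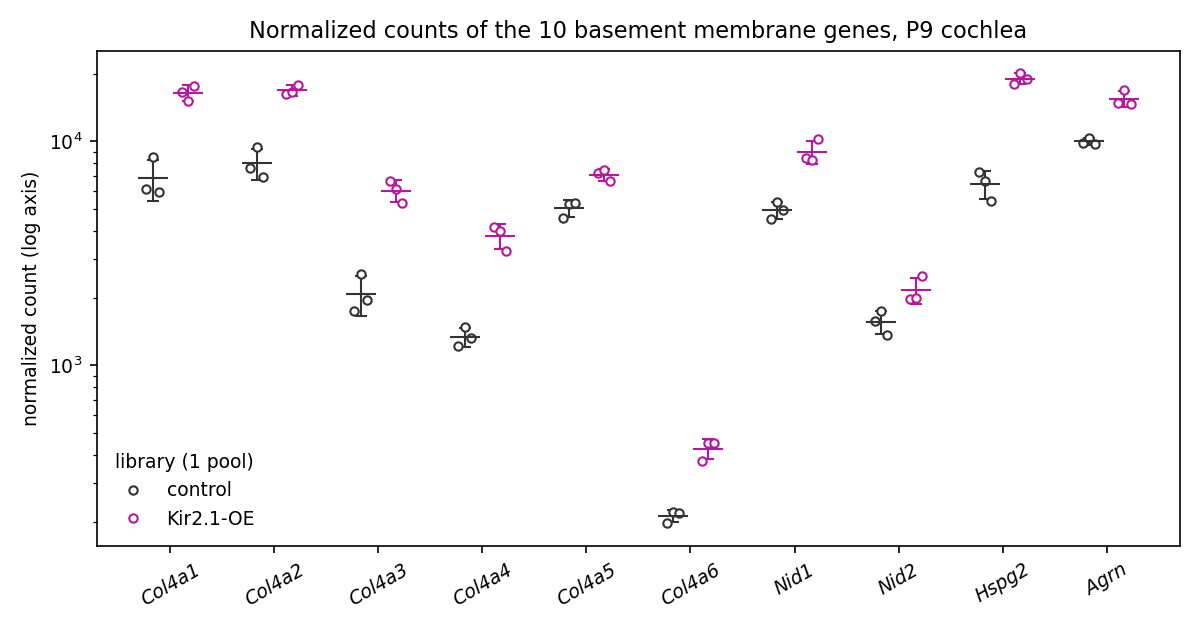
Normalized counts (log axis) of the 10 genes in each library, with circles for single libraries (3 control, 3 Kir2.1-OE) and bars for mean ± SD. For each gene all 3 Kir2.1-OE libraries lie above all 3 control libraries, with the widest separation for Hspg2, Col4a3 and Col4a4.

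In the same libraries, log2 fold changes rose with transcript length over all genes, and basement membrane transcripts are long. The longest annotated transcripts of the members span 4876 nt (*Nid2*) to 14187 nt (*Hspg2*). Among the 3595 tested genes within that range 40.5% were called higher, and their median log2 fold change was 0.48. The trend of all genes with transcript length and GC content was therefore also taken out, library by library, as an offset in the fit. After this the median of the genes in that length range was 0.04 and that of the members 0.31. With the offsets 2 members were called higher, *Col4a3* and *Col4a4*, where 6.89% of all genes and 10% of the genes in that length range were called higher. None was called lower, against 2.96% of all genes, although *Agrn* had a negative change at an unadjusted p under 0.05, making 1 of 10. The trend itself differed between the groups by 0.42 (*Nid2*) to 1.39 (*Hspg2*) on the log2 scale at the members' lengths and GC contents. The source of the trend was not tested, and it cannot be told apart from a change of long transcripts in the tissue.

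**Figure D2:**
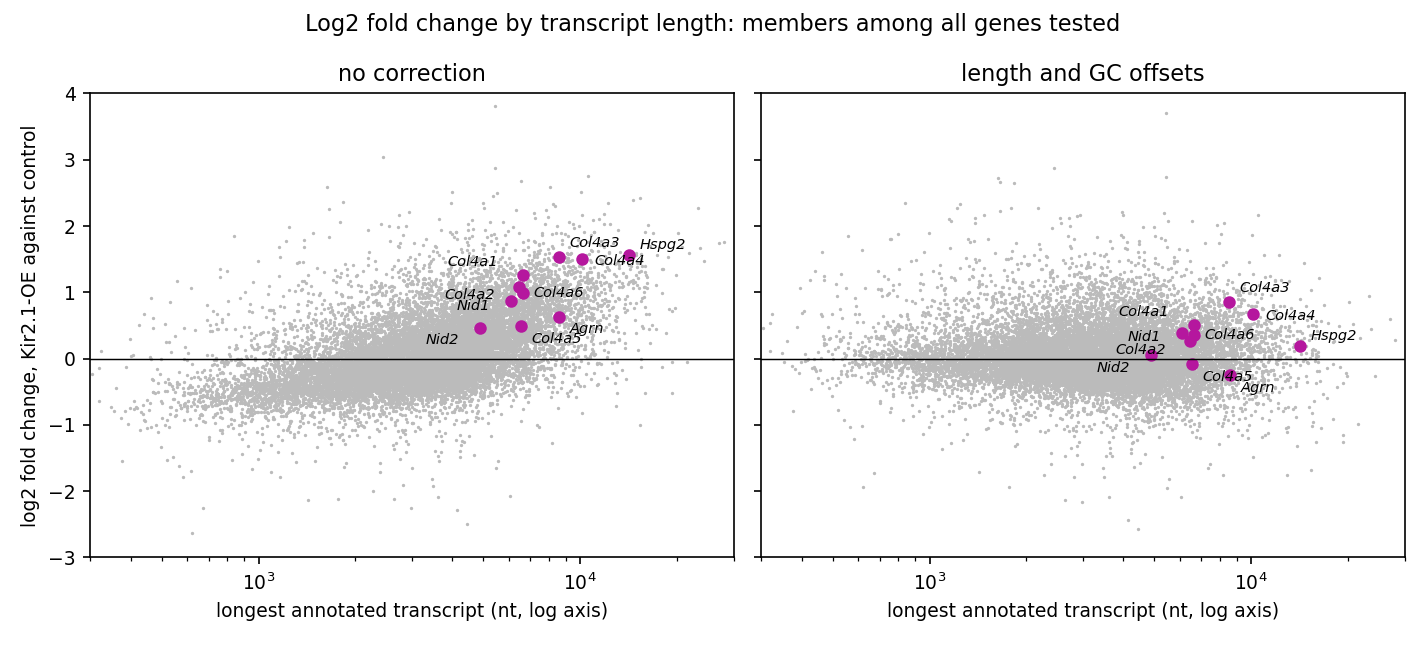
Log2 fold change of each tested gene (grey points) and of the 10 members (magenta) against the length of the longest annotated transcript (nt, log axis), without correction on the left and with length and GC offsets on the right. On the left the cloud rises with length and the members lie between 0.46 and 1.56; on the right the cloud is level and they lie between -0.25 and 0.85, with Col4a3 and Col4a4 highest.

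The *Col4a3* and *Col4a4* chains, which assemble with *Col4a5*, rose in both fits. *Col4a3* was at 6655.3, 6147.7 and 5303.1 normalized counts in *Kir2.1*-OE against 1750.7, 2563.2 and 1961.5 in controls. Its lowest *Kir2.1*-OE library lay well above its highest control. The log2 fold change was 1.53 ± 0.14 (SE, adjusted p = 1.44e-04, edgeR), a 2.88-fold difference. *Col4a4* was at 4166.2, 3991.2 and 3236.0 normalized counts against 1221.0, 1480.2 and 1326.3, again without overlap (log2 fold change 1.5 ± 0.11, adjusted p = 1.20e-04, edgeR). With the offsets the corrected counts of *Col4a3* were 4959.3, 4904.3 and 4416.3 in *Kir2.1*-OE and 2208.8, 3093.0 and 2623.9 in controls, and those of *Col4a4* were 2933.8, 3029.6 and 2602.1 against 1612.5, 1854.6 and 1883.4. Both genes still separated the groups, at smaller differences. The log2 fold changes with offsets were 0.85 (adjusted p = 0.00158) for *Col4a3* and 0.68 (adjusted p = 0.0013) for *Col4a4*, both from edgeR.

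*Col4a5*, the X-linked chain of the same trimer, had a smaller log2 fold change. It was at 7190.0, 7437.8 and 6621.2 normalized counts in *Kir2.1*-OE and at 4553.9, 5260.0 and 5324.5 in controls. The groups did not overlap and the log2 fold change of 0.49 ± 0.08 had an adjusted p of 0.00136 (edgeR), but the 1.40-fold difference was under the fold threshold. With the offsets the difference was -0.09 (adjusted p = 0.428) and the groups overlapped. Its head-to-head neighbour *Col4a6* was the least abundant member, at 374.64, 449.69 and 451.71 normalized counts against 197.65, 222.61 and 218.84. It was 2-fold higher (log2 fold change 1.00, adjusted p = 3.34e-04, edgeR), and with the offsets its value was 0.35 (adjusted p = 0.0835).

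The ubiquitous chains were called higher without the offsets. With them *Col4a2* was not called, and *Col4a1* only in some forms of the fit. *Col4a1* was at 16633, 15139 and 17734 normalized counts in *Kir2.1*-OE against 6136.1, 8480.2 and 5948.5 in controls (log2 fold change 1.27 ± 0.14, adjusted p = 1.80e-04, edgeR). *Col4a2* was at 16235, 16561 and 17904 against 7571.7, 9428.8 and 6965.3 (1.08 ± 0.11, adjusted p = 1.69e-04, edgeR). For both genes control replicate 2 was the highest control and *Kir2.1*-OE replicate 3 the highest of all 6 libraries. With the offsets *Col4a1* kept a positive difference of 0.51 (adjusted p = 0.0116), 1.43-fold and under the fold threshold, and it passed that threshold when control replicate 2 was left out. It also passed at 0.59 (adjusted p = 0.0044, edgeR) when length and GC were taken out one after the other. *Col4a2* was at 0.27 (adjusted p = 0.0825) with the offsets, and its groups then overlapped. The annotated first exons of these genes overlap on opposite strands, only at chr8:11312805-11312826. The strand setting of the counting is not given in the sources used here, so reads from that short overlap are uncertain between them. The deposited estimates of both genes were whole in every library, so no reads were divided between them as fractions.

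The nidogens bind both laminin and type IV collagen. *Nid1* was at 8418.6, 8287.2 and 10197 normalized counts in *Kir2.1*-OE against 4486.7, 5386.3 and 4926.5 in controls (log2 fold change 0.86 ± 0.10, adjusted p = 2.51e-04, edgeR). Its value with the offsets was 0.39 (adjusted p = 0.0234), 1.31-fold. *Nid2* was at 1982.0, 2009.6 and 2497.6 against 1585.2, 1746.4 and 1369.0. The log2 fold change of *Nid2* was 0.46 ± 0.12 (adjusted p = 0.00839, edgeR), under the fold threshold, and with the offsets it was 0.06 (adjusted p = 0.758). The deposited estimates of *Nid2* held fractions in 6 of 6 libraries, as happens when reads are divided with another gene, so its level is less certain than those of the other 9, whose estimates were whole.

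Perlecan, the proteoglycan of most basement membranes, had the largest log2 fold change of the members without the offsets. *Hspg2* was at 17988, 20140 and 18993 normalized counts in *Kir2.1*-OE against 7302.9, 6642.1 and 5426.3 in controls (1.56 ± 0.11, adjusted p = 1.20e-04, edgeR). It also has the longest transcript, and with the offsets the groups overlapped at a difference of 0.19 (adjusted p = 0.232). Under the other forms of the trend the difference was 0.38 and 0.33 (adjusted p = 0.00956 and 0.0386, edgeR), still under 1.5-fold. *Agrn*, whose neural form clusters acetylcholine receptors at synapses, was at 14869, 16995 and 14624 normalized counts against 9873.3, 10394 and 9753.3 (log2 fold change 0.63 ± 0.08, adjusted p = 3.39e-04, edgeR). This 1.55-fold difference was only just past the threshold, and without *Kir2.1*-OE replicate 2 its log2 fold change of 0.53 was not. With the offsets the sign turned: corrected counts were 10138, 12563 and 11644 in *Kir2.1*-OE and 13386, 13201 and 14278 in controls, a difference of -0.25 (adjusted p = 0.0513, edgeR). The other forms of the trend gave -0.28 (adjusted p = 0.028) and -0.21 (adjusted p = 0.0827) for *Agrn*, and neither was called.

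**Figure D3:**
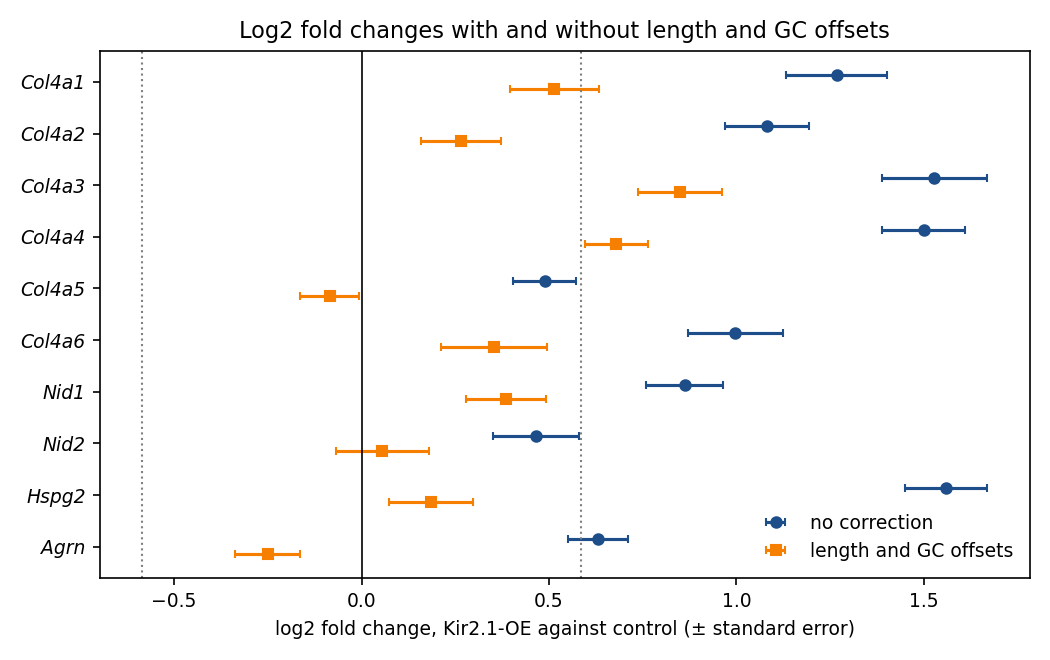
Log2 fold changes (points) ± SE (bars) of the 10 genes, fitted over 3 Kir2.1-OE and 3 control libraries without correction (blue circles) and with length and GC offsets (orange squares); dotted lines mark a 1.5-fold change in each direction. With the offsets only Col4a3 (0.85) and Col4a4 (0.68) lie beyond the line, and Col4a5 (-0.09) and Agrn (-0.25) lie below 0.

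A stricter test asked whether a change exceeded 0.6 on the log2 scale. Here 6 of 10 members passed, where 5.44% of all genes did: *Col4a1*, *Col4a2*, *Col4a3*, *Col4a4*, *Col4a6* and *Hspg2*. *Nid1* missed it narrowly (adjusted p = 0.0565, edgeR glmTreat). With the offsets 0 members passed in glmTreat, where 0.105% of all genes did, and 1 member had an unadjusted p under 0.05.

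Members were then compared with each other within each library, as log2 ratios of normalized counts. With 3 libraries against 3, the exact permutation test (two-sided) cannot give a p below 0.10, and p-values were adjusted over the 5 ratios compared. The pair of proteoglycans gave the widest separation. The log2 ratio of *Hspg2* to *Agrn* was 0.27, 0.24 and 0.38 in *Kir2.1*-OE and -0.44, -0.65 and -0.85 in controls. These counts are not divided by transcript length, so a log2 ratio of 0 does not mark equal levels. Per kb, mean *Hspg2* was below mean *Agrn* in both groups (1342 and 1799 in *Kir2.1*-OE, 455.1 and 1162 in controls). The difference in the log2 ratio between the groups was 0.94 (exact permutation p = 0.1, adjusted p = 0.167) and 0.43 with the offsets (p = 0.1), without overlap in either. The ratio of *Nid2* to *Nid1* was -2.09, -2.04 and -2.03 in *Kir2.1*-OE and -1.50, -1.62 and -1.85 in controls. It was lower in all 3 *Kir2.1*-OE libraries, by -0.40 (exact permutation p = 0.1, adjusted p = 0.167) and by -0.33 with the offsets (p = 0.1).

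Among the collagen chains, the ratio of *Col4a5* and *Col4a6* to *Col4a1* and *Col4a2* was -3.32, -3.11 and -3.37 in *Kir2.1*-OE and -2.84, -3.05 and -2.58 in controls. These ranges did not overlap, and the difference was -0.45 (exact permutation p = 0.1, adjusted p = 0.167), but with the offsets it was -0.26 (p = 0.2). The log2 fold changes were 0.49 for *Col4a5* and 1.00 for *Col4a6*, against 1.27 for *Col4a1* and 1.08 for *Col4a2*. With the offsets the same genes, in that order, were at -0.09, 0.35, 0.51 and 0.27. The ratio of *Col4a3* and *Col4a4* to *Col4a1* and *Col4a2* was -1.64, -1.68 and -2.10 in *Kir2.1*-OE against -2.22, -2.20 and -2.0 in controls. *Kir2.1*-OE replicate 3 lay among the controls, and the difference was 0.33 (exact permutation p = 0.2, adjusted p = 0.25). With 1 library left out at a time, it was lowest without *Kir2.1*-OE replicate 1, at 0.25 (exact permutation p = 0.3). It was highest without *Kir2.1*-OE replicate 3, at 0.48 (exact permutation p = 0.1, the smallest possible). The remaining leave-outs gave 0.27 to 0.40 (exact permutation p = 0.2 to 0.3). *Col4a4* and *Col4a3*, whose starts are 72 bases apart, had a log2 ratio of -0.68, -0.62 and -0.71 in *Kir2.1*-OE and -0.52, -0.79 and -0.56 in controls. These ranges overlapped and the difference was -0.05 (exact permutation p = 0.7, adjusted p = 0.7), which turned to 0.01 without control replicate 1. With the offsets it was -0.18 (exact permutation p = 0.2).

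**Figure D4:**
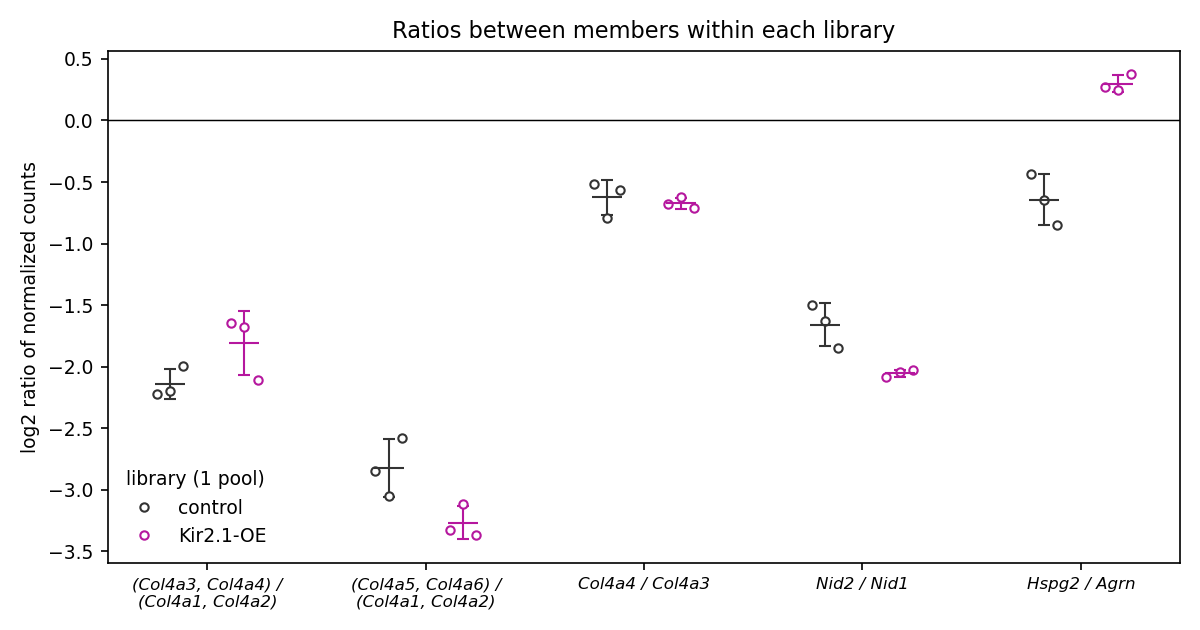
Log2 ratios of normalized counts between members within each library, with circles for single libraries (3 per group) and bars for mean ± SD; pairs of genes are averaged on the log2 scale. The ratio of Hspg2 to Agrn lies above 0 in the Kir2.1-OE libraries (0.24 to 0.38) and below 0 in controls (-0.85 to -0.44), whereas the ratio of Col4a4 to Col4a3 overlaps between groups.

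*Kir2.1*-OE replicate 3 had the lowest *Kcnj2* of its group. It had the lowest normalized counts of its group for *Col4a3*, *Col4a4*, *Col4a5* and *Agrn*, and the highest for *Col4a1*, *Col4a2*, *Col4a6*, *Nid1* and *Nid2*. For *Hspg2* it lay between the other libraries of the group. It was close to replicate 1 for *Agrn* (14624 and 14869) and to replicate 2 for *Col4a6* (451.71 and 449.69). In a group of 3, any library is often the highest or the lowest, and no comparison with all genes was made. Whether these differences within the group go with *Kcnj2* was not tested. Without *Kir2.1*-OE replicate 3, 8 members were still called higher.

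Levels were compared between genes only per kb of the longest annotated transcript. In controls the order of mean normalized counts per kb was *Col4a2* (1239 ± 199, SD, n = 3), *Agrn* (1162 ± 39.5), *Col4a1* (1036 ± 213), *Nid1* (809.9 ± 73.9), *Col4a5* (772.1 ± 65.4), *Hspg2* (455.1 ± 67.1), *Nid2* (321.3 ± 38.8), *Col4a3* (244.5 ± 49.3), *Col4a4* (132.8 ± 12.9) and *Col4a6* (32.04 ± 2.02). Neighbours in this order whose libraries overlapped were *Col4a2* with *Agrn*, *Agrn* with *Col4a1*, *Nid1* with *Col4a5*, and *Nid2* with *Col4a3*. In *Kir2.1*-OE the order per kb was *Col4a2* (2620 ± 137), *Col4a1* (2495 ± 197), *Agrn* (1799 ± 151), *Nid1* (1472 ± 175), *Hspg2* (1342 ± 75.9), *Col4a5* (1084 ± 64.1), *Col4a3* (705.6 ± 79.9), *Nid2* (443.6 ± 59.5), *Col4a4* (375.7 ± 48.9) and *Col4a6* (63.98 ± 6.61). Here *Col4a2* overlapped with *Col4a1*, *Nid1* with *Hspg2*, and *Nid2* with *Col4a4*. The ubiquitous chains were thus the most abundant collagen IV transcripts in both groups and *Col4a6* the least, whereas *Col4a1*, *Hspg2* and *Col4a3* each stood a place higher in *Kir2.1*-OE and *Agrn*, *Col4a5* and *Nid2* a place lower.

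As shares of all type IV collagen counts per kb, *Col4a1* and *Col4a2* made up 33.9% ± 1.98 and 35.7% ± 1.51 (SD, n = 3) in *Kir2.1*-OE and 29.8% ± 1.84 and 35.8% ± 1.73 in controls. *Col4a5* took 14.9%, 15.9% and 13.5% in *Kir2.1*-OE against 22.1%, 20.0% and 25.6% in controls. *Col4a3* took 10.5%, 10% and 8.29% in *Kir2.1*-OE against 6.49%, 7.44% and 7.19% in controls. The *Col4a3* and *Col4a5* shares did not overlap between groups and differed in opposite directions, though their chains belong to one trimer. Shares of *Col4a1* (31.9% to 35.9% against 28.2% to 31.8%) and *Col4a4* (4.28% to 5.59% against 3.64% to 4.12%) did not overlap either, both higher in *Kir2.1*-OE. Shares are parts of one whole, so a higher share of some chains entails a lower share of others. *Col4a4* took 5.12% ± 0.731 against 3.86% ± 0.242 and *Col4a6* 0.872% ± 0.095 against 0.936% ± 0.101. Shares carry no offset and were not tested apart from the ratios above.

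**Figure D5:**
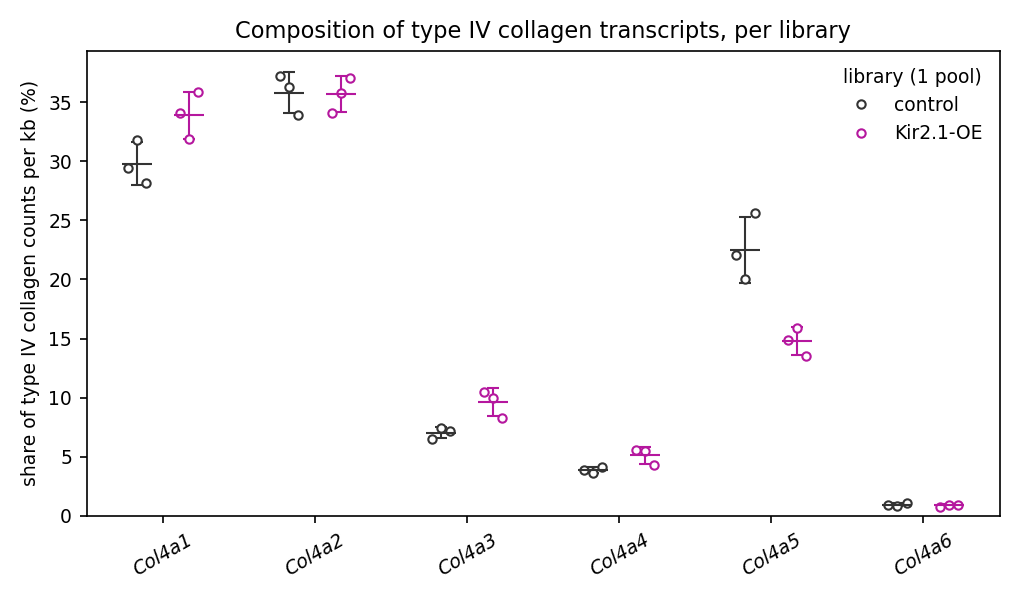
Share of each chain in the summed type IV collagen counts per kb (%, axis from 0), with circles for single libraries (3 per group) and bars for mean ± SD. Col4a5 is lower (means 14.8% and 22.5%) and Col4a3 higher (9.62% and 7.04%) in Kir2.1-OE than in control, and Col4a2 is level (35.7% and 35.8%).

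Other genes of the basement membrane were read from role lists. Of 84 such genes tested, 30 were called higher and 2 lower without the offsets, and 12 and 2 with them, at medians of 0.46 and 0.04. The shares over all genes tested, against which these and the following counts stand, were 15.5% called higher and 5.08% lower, and 6.89% and 2.96% with the offsets. Among genes in the members' length range 40.5% were called higher, and 10% with the offsets. Laminins form the other network of the sheet, and 10 of 11 were called higher (median log2 fold change 1.11), and 5 with the offsets (median 0.46). *Lama1* (log2 fold change 1.97, adjusted p = 0.00102, edgeR; 1.13 with offsets) and *Lama2*, the chain around Schwann cells and muscle fibres (1.36, adjusted p = 1.24e-04; 0.70 with offsets), rose in both fits. *Lamb3* was called only without the offsets (0.66, adjusted p = 0.00248; 0.21 with offsets). Of 16 other structural genes 5 were called higher, and 2 with the offsets. *Col7a1*, the anchoring fibril collagen, rose in both fits (2.06, adjusted p = 1.76e-04, edgeR; 0.96 with offsets), and *Frem2* without the offsets (1.03, adjusted p = 1.46e-04; 0.06 with offsets). *Tinagl1* (-0.18, adjusted p = 0.187) and *Fbln1* (-0.22, adjusted p = 0.0851) had the lowest values of that list.

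Genes that fold, modify and export collagen were read as a list of their own. Of 18 tested, 3 were called higher and 1 lower, at a median log2 fold change of 0.04, so the share called higher (16.7%) was near that of all genes. With the offsets 2 were called higher and 1 lower, at a median of -0.07. *P3h2*, a prolyl 3-hydroxylase that acts on type IV collagen, rose (1.21, adjusted p = 0.0014, edgeR; 1.15 with offsets), as did *Mia3*, which encodes the collagen export receptor TANGO1 (1.14, adjusted p = 2.67e-04; 1.29 with offsets). *P4ha2*, a catalytic subunit of prolyl 4-hydroxylase, fell in both fits (-1.09, adjusted p = 0.0129; -1.09 with offsets). Its normalized counts were 160.12, 237.83 and 260.23 in *Kir2.1*-OE and 685.24, 427.96 and 287.04 in controls. Control replicate 3 thus lay near the highest *Kir2.1*-OE library. *Ppib*, cyclophilin B of the endoplasmic reticulum, was at -0.50 (adjusted p = 5.61e-04; -0.49 with offsets), 0.708-fold of control and within the fold threshold. These 4 values moved little with the offsets, and the median longest transcript of the list was 3243.5 nt against 6046 nt for the laminins. The offset of *Mia3* was taken at a longest matched transcript of 2961 nt, so its value with the offsets rests on that length.

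Of 23 cell surface receptors 10 were called higher and 0 lower, and 2 and 0 with the offsets. *Itga1*, which pairs with integrin beta-1 to bind type IV collagen, was at 1.12 (adjusted p = 8.99e-04, edgeR; 0.54 with offsets, 1.45-fold). *Lrp4*, the agrin receptor, was at 1.01 (adjusted p = 4.30e-04; 0.26 with offsets). *Musk*, the kinase that agrin activates through *Lrp4*, was chosen here after its values were seen and was called in both fits (0.83, adjusted p = 0.0184; 0.81 with offsets). The syndecans *Sdc4* (-0.14, adjusted p = 0.131) and *Sdc2* (-0.23, adjusted p = 0.0274) had the lowest values and were not called. Of 16 turnover genes 2 were called higher and 1 lower, and 1 and 1 with the offsets, at a share called higher (12.5%) again near that of all genes. *Prss12*, encoding neurotrypsin, a protease that cleaves agrin, rose (0.65, adjusted p = 0.00145, edgeR; 0.62 with offsets) and *Hpse*, encoding the heparan sulfate-degrading heparanase, fell (-0.69, adjusted p = 0.0198; -0.64 with offsets). *Mmp15* was called only without the offsets (0.61, adjusted p = 3.70e-04; 0.00 with offsets), and *Timp1* was at -0.38 (adjusted p = 0.0443; 0.11 with offsets).

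The genes whose levels followed the members most closely over the 6 libraries were *Slc7a1*, *Tns3*, *Rapgef2*, *Tbck* and *Lamc1*, with Pearson r of 0.998 to 0.999 against the mean log2 normalized count of the members. This is a description over 6 libraries that fall into the 2 groups, and 2853 of 13635 genes compared had an r above 0.9. The log2 fold changes of *Slc7a1* and *Tns3* were 0.46 and 0.58 without the offsets and -0.15 and -0.09 with them. *Rapgef2* was at 1.06 and 0.56 with the offsets, *Tbck* at 0.475 and 0.11, and *Lamc1*, the laminin gamma chain common to most laminins, at 1.15 and 0.46.

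Marker lists of the cell types that the tissue could hold were read beside the members, and none was tested as a list. Of 11 endothelial markers 8 were called higher, and 4 with the offsets, and their summed normalized counts were 19085 to 20233 in *Kir2.1*-OE and 13784 to 15950 in controls. Of 9 pericyte and smooth muscle markers 4 were called higher, and 2 with the offsets (sums 14536 to 15235 and 9201.1 to 10790). Of 10 Schwann and glial markers 6 were called higher, and 7 with the offsets (sums 373330 to 492960 and 262460 to 337680). Of 7 IHC markers 3 were called higher and 1 lower, and 2 and 1 with the offsets (sums 35309 to 42860 and 30224 to 30585). Of 12 supporting cell markers 2 were called higher and 2 lower, and 1 and 1 with the offsets (sums 126910 to 149120 and 138810 to 161380). Of 10 spiral ganglion neuron markers 6 were called higher in both fits, at sums of 21635 to 55494 in *Kir2.1*-OE and 10296 to 17074 in controls. Cartilage and bone markers had sums of 366540 to 393410 and 158860 to 292720, with 3 of 9 called higher in both fits. Melanocyte and stria markers had sums of 14084 to 16792 and 8599.1 to 10383, although 1 of 7 was called higher and 2 lower (0 and 2 with the offsets). Erythrocyte markers had lower sums in *Kir2.1*-OE, of 10912 to 13895 against 18016 to 44947, and 3 of 7 were called lower (0 with the offsets). The sums of these 4 lists did not overlap between the groups. Neither did those of the endothelial, pericyte and smooth muscle, Schwann and glial, IHC and shared hair cell lists, all higher in *Kir2.1*-OE. For these lists, in that order, the median log2 fold changes were 0.65, 0.57, 0.68, 0.32 and 0.05. With the offsets they were 0.43, 0.05, 0.66, -0.03 and 0.01. The sums of the supporting cell, fibrocyte and mesenchyme, outer hair cell and macrophage lists overlapped. None of the sums carries an offset. Of all single genes tested, 31.7% lay higher in every *Kir2.1*-OE library than in any control library. Called higher were also 4 of 12 markers of fibrocytes and mesenchyme (1 with the offsets; sums 505260 to 591880 and 402050 to 559380), 4 of 6 of outer hair cells (1, with 1 lower; 24110 to 30116 and 26368 to 32958), 2 of 9 shared by hair cells (1; 30361 to 32696 and 27174 to 27834) and 0 of 9 of macrophages (1; 8101.5 to 8726.3 and 7727.3 to 8235.7). No marker tested was at 0 in every library, so the tissue held transcripts of vessels, glia and epithelium alike. The part of these cell types in the members' differences was not tested.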

How the data were processed

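RNA was sequenced from 6 pools (3 *Kir2.1*-OE, 3 control) after poly(A) selection, as paired-end Illumina reads. The authors ran the nf-core RNA pipeline against mm10 and deposited Salmon estimated counts per gene. Tool versions, the annotation and the strand setting are not given in the sources used here. The deposited expected counts were rounded to whole numbers (6.95% of values were not whole). Genes were filtered with filterByExpr, scaled by TMM and tested with edgeR 4.0.16 (R 4.3.3), with Benjamini-Hochberg adjustment over the 15303 genes tested. glmTreat tested against a log2 fold change of 0.6. The SE given with a log2 fold change is its absolute value divided by the square root of the quasi-likelihood F statistic. Length and GC content came from the longest GENCODE vM21 transcript (23376 of 24411 symbols matched, a further 661 through an older symbol, 374 not), and a robust local plane (loess, span 0.4) over both properties, fitted to the log2 deviation of a library from the mean library, gave its offsets (none for unmatched genes). That form was chosen after seeing the data, and other forms were run beside it. A prior count of 0.5 was added before logarithms.

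Ratios between members were tested by exact permutation over libraries. DESeq2 1.42.0 and limma 3.58.1 were alternatives. The scripts were tested on simulated data. All members are named, along with *Kcnj2*, the 2 highest and 2 lowest genes of each role list (1 laminin is not reported here), and the 5 genes most alike among those averaging 50 or more normalized counts. The members and lists were chosen with earlier results of these data known. The symbols *Pxdnl* and *Gpr126* had no row of that name, the latter being counted as *Adgrg6*. Libraries of a group differed by a chi-square per degree of freedom of 15.7 to 31.1, beyond sampling noise. Replicate numbers were not used as pairs in the main fit, and the header of control replicate 1 gives it another number.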

Additional observations from a re-analysis of the deposited data

How the results depend on the processing

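The count of 8 members called higher was 7 to 8 under other scalings, filters, DESeq2 and limma-voom, and 10 without a fold threshold; under upper quartile scaling *Agrn* was at 0.54, and the median of all genes moved from 0.01 to -0.08. The length and GC offsets gave 2, as did the offsets with the replicate block and with a least squares surface, and 3 when length and GC were taken out one after the other (*Col4a1*, 0.59). *Col4a3* and *Col4a4* were called in each of these. Against a log2 fold change of 0.6 the count was 0 instead of 6 in each of the 4 fits with offsets. *Col4a5* reversed to -0.0852, -0.0833, -0.134 and -0.0555, and *Agrn* to -0.25, -0.26, -0.28 and -0.21, in the order offsets, offsets with the block, least squares surface, and one after the other. The cause was not tested. Partner genes called higher were 30 without offsets and 12 with them. Leaving out each library gave 7 to 8 members called higher without offsets and 2 to 3 with them, hence 2 to 8 in all, and 5 to 7 against a log2 fold change of 0.6. With 1 library left out at a time, the difference in the ratio of *Col4a4* to *Col4a3* ranged from -0.13 to 0.0078, the latter without control replicate 1, and with the offsets it was -0.18.

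Replicate numbers are shared by the groups, and the sources used here do not say whether they pair the pools. Same-numbered libraries deviated from their group means with correlations of -0.0944, -0.215 and -0.205 across 15303 genes, and no library correlated best with its own number. With 3 libraries per group these correlations cannot decide whether the pools were paired. With the number as a replicate block, 8 members were called higher, 5 passed against a log2 fold change of 0.6, and 2220 genes of the series were called higher and 718 lower; the ratios kept their values, and 3 pairs cannot give a p below 0.25. At 3 pools per group, no ratio could pass an adjusted p of 0.05, and *Col4a6* had the fewest counts of the members. The offsets and the other forms of them were fitted to all genes, so a change shared by long transcripts would be removed with the trend.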
